A study of Caenorhabditis elegans with 6 samples.

Results

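The proteasome is the barrel-shaped protease that degrades ubiquitin-tagged proteins, and its subunit genes and their regulators are described here across 6 RNA-seq libraries of *Caenorhabditis elegans*. Members were taken by gene symbol, as every gene whose name begins with *pas-*, *pbs-*, *rpt-* or *rpn-*, plus *skn-1*, *png-1* and *ddi-1*. This gave 36 genes of the 20138 in the count table, made up of 14 core subunits, 19 cap subunits and 3 regulators, and all 36 passed the filter on low counts. The study asked how *fmo-4*, a flavin-containing monooxygenase predicted to sit in the endoplasmic reticulum, shapes stress resistance and lifespan in worms. Gene expression was measured in whole worms on day 1 of adulthood, grown on bacterial lawns of *E. coli* OP50 without drug treatment. The labels give 3 libraries of an *fmo-4* overexpressing (OE) genotype and 3 libraries of wild type (WT), each numbered as a biological replicate; the OE ones are called OE-labelled here. They do not say whether the OE worms carried the transgene under the ubiquitous *eft-3* promoter or the hypodermal *dpy-7* promoter, both of which the study built as multicopy arrays and then integrated. Each library came from a pool of whole animals, so fewer cells of a type and less RNA per cell cannot be told apart.

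In the core particle, a ring of alpha subunits (*pas* genes) gates the entrance and a ring of beta subunits (*pbs* genes) cuts the substrate, with the active sites in PBS-1, PBS-2 and PBS-5. The cap that sits on the core recognises ubiquitin and unfolds the substrate with a ring of ATPases (*rpt* genes) in its base. It removes the ubiquitin chain through its lid, which most *rpn* genes encode. The other *rpn* genes encode further subunits of the base. In worms with an impaired proteasome, its genes are induced by SKN-1A, a form of the transcription factor SKN-1 that is made at the endoplasmic reticulum, deglycosylated by the peptide N-glycanase PNG-1 and cut by the protease DDI-1.

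The libraries held 17576872, 22675429 and 21336047 counted reads in the OE-labelled ones, against 20020901, 17768502 and 24943501 reads in WT. *fmo-4* itself had 372, 476 and 368 reads in OE-labelled libraries, against 522, 397 and 525 reads in WT. The gene named in the label was thus not higher in the OE-labelled libraries, with a log2 fold change of -0.24 (SE 0.18; adjusted p = 0.947, edgeR quasi-likelihood test with Benjamini-Hochberg adjustment), so every direction below goes by the labels alone. Library structure also crossed the labels. Over genes with a minimum total of reads, the chi-square per degree of freedom between OE-labelled library 1 and WT 1 or WT 2 was 24.3 and 17.6. Between OE-labelled library 1 and the other OE-labelled libraries it was 89.9 and 86.3. Genes under 1 kb took 20.0%, 26.5% and 25.4% of reads in OE-labelled libraries, against 19.7%, 20.6% and 26.2% in WT. All 8 lists of cell type markers, from intestine to early embryo, had reads in every library. Normalized counts below are reads scaled to the mean effective library size. The 4 summed hypodermal markers were the collagen genes *dpy-7*, *col-19*, *rol-6* and *bli-1*, of which 3 had reads in every library. Their sums came to 8817, 23010 and 23326 normalized counts in OE-labelled libraries, against 9253, 11740 and 29667 in WT. The summed sperm markers came to 226, 220 and 222 normalized counts in OE-labelled libraries, against 1048, 193 and 1022 in WT.

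No proteasome gene passed the test between the groups. Of the 36 members, 0 passed an adjusted p of 0.05 and 0 passed an unadjusted p of 0.05 in edgeR's quasi-likelihood test, and DESeq2 gave the same pair of counts. Over all 13413 genes tested, 0.0447% passed the adjusted threshold in edgeR (0.0149% higher and 0.0298% lower) and 7.34% the unadjusted one, and 0.686% and 8.25% did in DESeq2. The smallest unadjusted p of any member in edgeR was 0.219, for *skn-1*, and adjusted p-values ran from 0.937 to 0.996. The 2 groups overlapped for all 36 members, whereas they did not overlap for 11.1% of all genes tested. The 95% interval of the difference lay within 1 log2 unit on either side of 0 for 35 of 36 members, the exception being *pbs-1*, and for 58% of all genes tested. For 28 of 36 members it lay within 1.5-fold, so that larger changes of these 28 genes fell outside the interval. That held for 3 of the 7 beta ring genes and for 3939 of the 13413 genes tested.

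**Figure D1:**
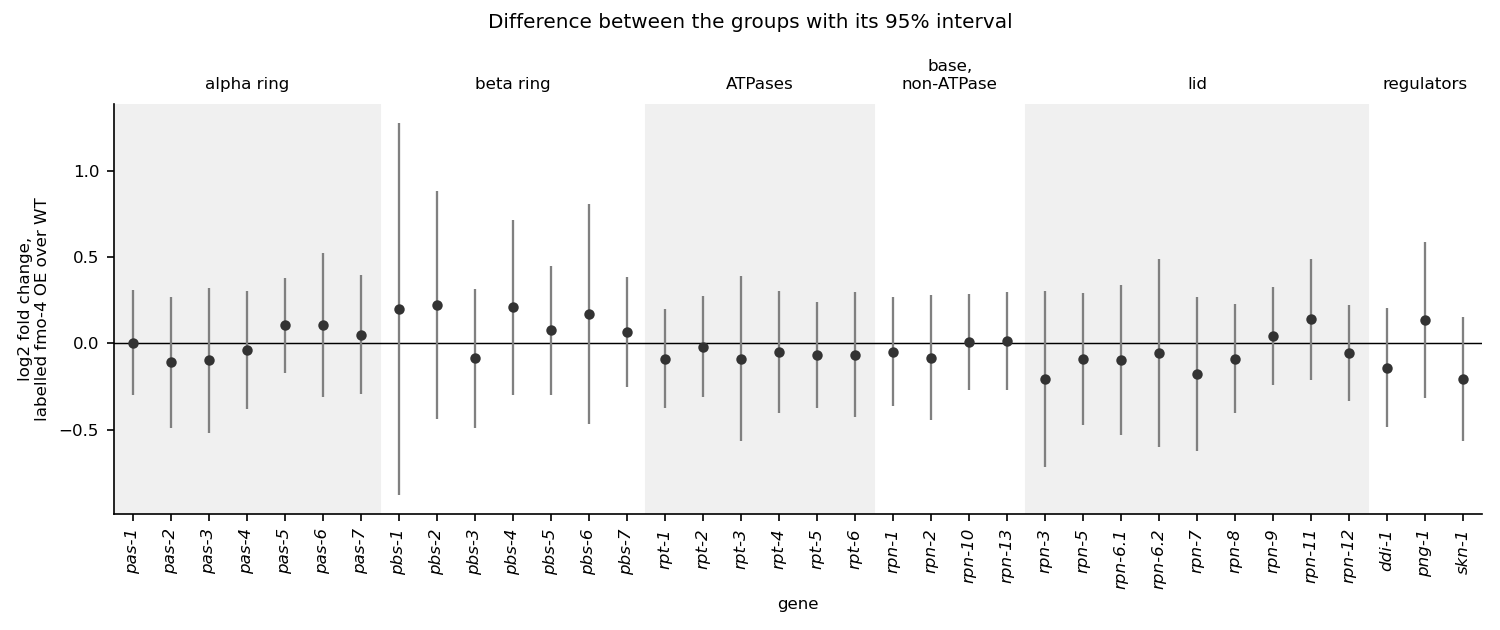
The vertical axis gives the log2 fold change of each member, OE-labelled libraries over WT (3 libraries each), and bars are 95% intervals from the edgeR fit across all genes. Every interval crosses 0, and *pbs-1* has the widest, from -0.88 to 1.28.

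By class, the core subunits had a median log2 fold change of 0.07, with 10 of 14 above 0, and the cap subunits one of -0.07, with 15 of 19 below 0. The median over all genes tested was -0.02, and 47.2% of all genes were above 0. Within the core the beta ring had the higher median, 0.17 with 6 of 7 above 0, against 0.00 with 4 of 7 above 0 in the alpha ring. Within the cap, the medians were -0.07 for the 6 ATPases, of which 0 were above 0, -0.02 for the 4 other base subunits and -0.09 for the 9 lid genes. The median log2 deviation of the core genes from their mean over the 6 libraries was -0.02, 0.15 and -0.0011 in OE-labelled libraries, against -0.18, -0.15 and 0.16 in WT. That of the cap genes was 0.13, -0.06 and -0.19 in OE-labelled libraries, against 0.08, 0.08 and -0.02 in WT. For both classes the groups overlapped. The within-group SD of a single gene had a median of 0.19 log2 units over the 36 members, 0.33 over the beta ring and 0.32 over all genes tested. With single libraries left out, the core median log2 fold change ran from -0.0033 without OE-labelled library 2, with 0.01 without WT 1 and 0.01 without WT 2, to 0.12 without OE-labelled library 1 and 0.16 without WT 3. The cap median ran from -0.14 without OE-labelled library 1 and -0.10 without WT 3 to 0.03 without OE-labelled library 3. With the share of reads in genes under 1 kb as a term in the fit, the medians were -0.01 for the core and -0.01 for the cap.

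Most of the subunits fell into a narrow band of expression. Per kb of gene length, 32 of the 33 subunits had a mean level over the 6 libraries between 2947 normalized counts per kb, for *rpn-10*, and 8058 normalized counts per kb, for *pas-3*, a 2.73-fold range. Each of these 32 stood above at least 93.9% of the genes tested. The exception was *rpn-6.2*, at 432 normalized counts per kb, a close copy of the lid gene *rpn-6.1*. Whether reads match both copies was not checked, and how the counting treated such reads is not given, so their separate values are uncertain. The regulators were lower than these 32 subunits, with *ddi-1* at 2106, *skn-1* at 1419 and *png-1* at 393 normalized counts per kb. This order of the regulators held in all 6 libraries. In the alpha ring, *pas-3*, *pas-2* and *pas-5* led at 8058, 8047 and 7677 normalized counts per kb, and their order changed between libraries, whereas *pas-5* stood above the next gene, *pas-6*, in 6 of 6 libraries. In the beta ring, *pbs-3*, *pbs-7* and *pbs-1* stood at 6427, 6195 and 5991 normalized counts per kb, and each was above the next in only 3 to 4 of 6 libraries. The 4 non-ATPase subunits of the base were the most alike, from 2947 for *rpn-10* to 3458 for *rpn-2*. Together the subunits took 1.07%, 0.946% and 0.914% of reads in OE-labelled libraries, against 1.02%, 1.00% and 0.939% in WT.

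**Figure D2:**
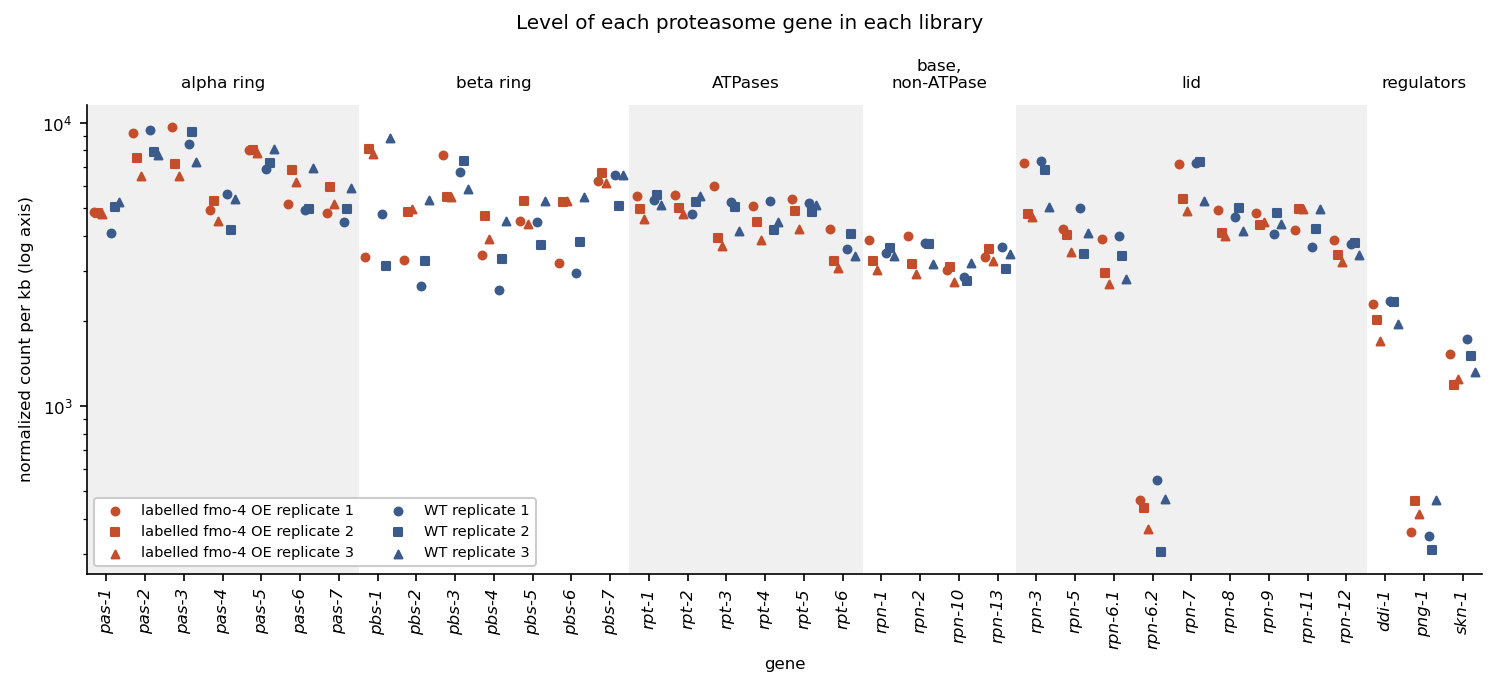
Normalized count per kb of gene length (log axis) for each member in each library, with OE-labelled libraries on the left of each gene and WT on the right, and 1 symbol per replicate number. Most subunits lie between about the level of *rpn-10* (2947) and that of *pas-3* (8058), while *rpn-6.2* and the 3 regulators lie lower.

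Among the catalytic beta subunits, *pbs-1* varied most of all members. *pbs-1*, on chromosome IV from 1708804 to 1709753 in the deposited coordinates, had 2821, 6800.4 and 6519 normalized counts in OE-labelled libraries, against 4004, 2629 and 7419 in WT. It was low in OE-labelled library 1 and in WT 1 and WT 2, and high in the other 3 libraries, so that its highest library stood 2.82-fold above its lowest. Its log2 fold change was 0.20 (SE 0.46; adjusted p = 0.961, edgeR with Benjamini-Hochberg adjustment), and leaving out single libraries moved it from -0.09 (without WT 2) to 0.69 (without WT 3).

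*pbs-2*, which carries the trypsin-like site, had 3300.2, 4904 and 4996 normalized counts in OE-labelled libraries, against 2670.5, 3279.9 and 5376 in WT. OE-labelled library 1 again lay with WT 1 and WT 2, and the log2 fold change was 0.22 (SE 0.28), the highest of the beta ring. Without WT 3 it was 0.56, the only member and setting among those run to reach an unadjusted p under 0.05 (adjusted p = 0.570, edgeR quasi-likelihood test). *pbs-5*, the chymotrypsin-like subunit, had 5574, 6558 and 5467 normalized counts in OE-labelled libraries, against 5537, 4605 and 6576 in WT. It was the steadiest of the catalytic subunits, with a log2 fold change of 0.07 (SE 0.16) and groups that overlapped.

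Of the non-catalytic beta subunits, *pbs-4* and *pbs-6* followed the same libraries. *pbs-6* had 2833, 4631 and 4672 normalized counts in OE-labelled libraries, against 2609, 3349 and 4838 in WT. *pbs-4* had 3497, 4816 and 3976 normalized counts in OE-labelled libraries, against 2634, 3380.5 and 4615 in WT. For both, WT 1 was the lowest library and the groups overlapped.

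*pbs-3*, with a gene length of 832 bases against 840 for *pbs-1*, ran the other way across the libraries. It had 6431, 4562 and 4562 normalized counts in OE-labelled libraries, against 5559.6, 6116 and 4852 in WT. Its highest value was in OE-labelled library 1, and its log2 fold change of -0.09 (SE 0.17) was the lowest of the beta ring. *pbs-7*, the remaining beta subunit, had a log2 fold change of 0.06.

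In the alpha ring, *pas-3* encodes the subunit whose tail closes the gate of the core. It had 10205, 7523 and 6828 normalized counts in OE-labelled libraries, against 8884, 9743 and 7682 in WT. OE-labelled libraries held both its highest and its lowest values, and the log2 fold change was -0.10 (SE 0.18). *pas-6*, with the highest log2 fold change of the ring at 0.11 (SE 0.18), had 4897, 6489 and 5859 normalized counts in OE-labelled libraries, against 4697, 4723 and 6601 in WT. *pas-2*, with the lowest at -0.11 (SE 0.16), had 8199.7, 6698 and 5759 normalized counts in OE-labelled libraries, against 8406, 7049 and 6856 in WT. Both sets overlapped between the groups. The other alpha genes ran from -0.04 for *pas-4* to 0.10 for *pas-5*, and *pas-5* varied least of all 36 members within groups, with an SD of 0.09 log2 units.

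The ATPases of the base, which pull the substrate into the core, were all slightly below 0 in log2 fold change, from -0.02 for *rpt-2* to -0.09 for *rpt-3*. *rpt-3* had 8129.97, 5334 and 4977 normalized counts in OE-labelled libraries, against 7143, 6834 and 5649 in WT. *rpt-2* had 8272, 7427 and 7063 normalized counts in OE-labelled libraries, against 7085, 7832 and 8186 in WT. Both genes were highest in OE-labelled library 1 and lowest in OE-labelled library 3. The groups overlapped for both, and without OE-labelled library 3 the log2 fold change of *rpt-3* was 0.05.

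Among the other base subunits, *rpn-10* and *rpn-13* encode ubiquitin receptors. *rpn-10* had 3928, 4012 and 3556 normalized counts in OE-labelled libraries, against 3709, 3594 and 4136 in WT. *rpn-13* had 4683, 5012 and 4545 normalized counts in OE-labelled libraries, against 5074, 4249 and 4793 in WT. Both were flat across the libraries, with log2 fold changes of 0.01 (SE 0.12 each) and highest-to-lowest ratios of 1.16 and 1.19. The scaffold gene *rpn-2* had 12361, 9841 and 9105 normalized counts in OE-labelled libraries, against 11671, 11636 and 9875 in WT, with a log2 fold change of -0.08 (SE 0.16). The groups overlapped. Part of *rpn-2*, 206 bases, overlaps *sna-3* on the opposite strand, and whether the counting used strand is not given in the sources used here, so reads of the pair cannot be told apart there.

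In the lid, *rpn-11* encodes the deubiquitinase that removes the chain and *rpn-6.1* a subunit that clamps the lid to the core. *rpn-11* had 4621, 5511 and 5519.7 normalized counts in OE-labelled libraries, against 4041, 4692 and 5485 in WT. OE-labelled libraries 2 and 3 stood just above the highest WT library, and the log2 fold change of 0.14 (SE 0.15) was the highest of the cap. *rpn-6.1* had 6486, 4952 and 4506 normalized counts in OE-labelled libraries, against 6673, 5681 and 4688 in WT, with a log2 fold change of -0.10 (SE 0.19). It was high in OE-labelled library 1 and in WT 1, and low in OE-labelled library 3 and in WT 3.

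*rpn-3*, a structural subunit, had the lowest log2 fold change of all members, -0.21 (SE 0.22; adjusted p = 0.956, edgeR with Benjamini-Hochberg adjustment). It had 13346, 8849 and 8585 normalized counts in OE-labelled libraries, against 13596, 12656.5 and 9313 in WT. Here OE-labelled library 1 lay beside WT 1 and WT 2, above the other 3 libraries, in the reverse of the *pbs-1* pattern. *rpn-7* followed, at -0.18, and the other lid genes ran from -0.09 for *rpn-5* to 0.04 for *rpn-9*.

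The balance of core and cap was measured as the summed normalized counts per kb of the 14 core genes divided by that of the 19 cap genes. The ratio was 0.904, 1.16 and 1.15 in OE-labelled libraries, against 0.893, 0.902 and 1.17 in WT. It averaged 1.07 ± 0.146 in OE-labelled libraries and 0.989 ± 0.157 in WT (SD, n = 3 each), a difference of 0.0834 that was smaller than either SD. On the log2 scale the difference was 0.12, and it was 0.25 without WT 3, 0.24 without OE-labelled library 1 and 0.05 without WT 1. Both groups held low and high libraries. Among the libraries in which genes under 1 kb took 25.4% to 26.5% of reads, the ratio was 1.16 and 1.15 in the OE-labelled ones and 1.17 in WT. Among those in which such genes took 19.7% to 20.6%, it was 0.904 in the OE-labelled library and 0.893 and 0.902 in WT. This grouping of the libraries is a description, with too few libraries of each group per set to compare them. The part of the short-gene read share in the ratio was not tested. Median gene length was 952.5 bases for the core genes and 1487 bases for the cap genes.

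**Figure D3:**
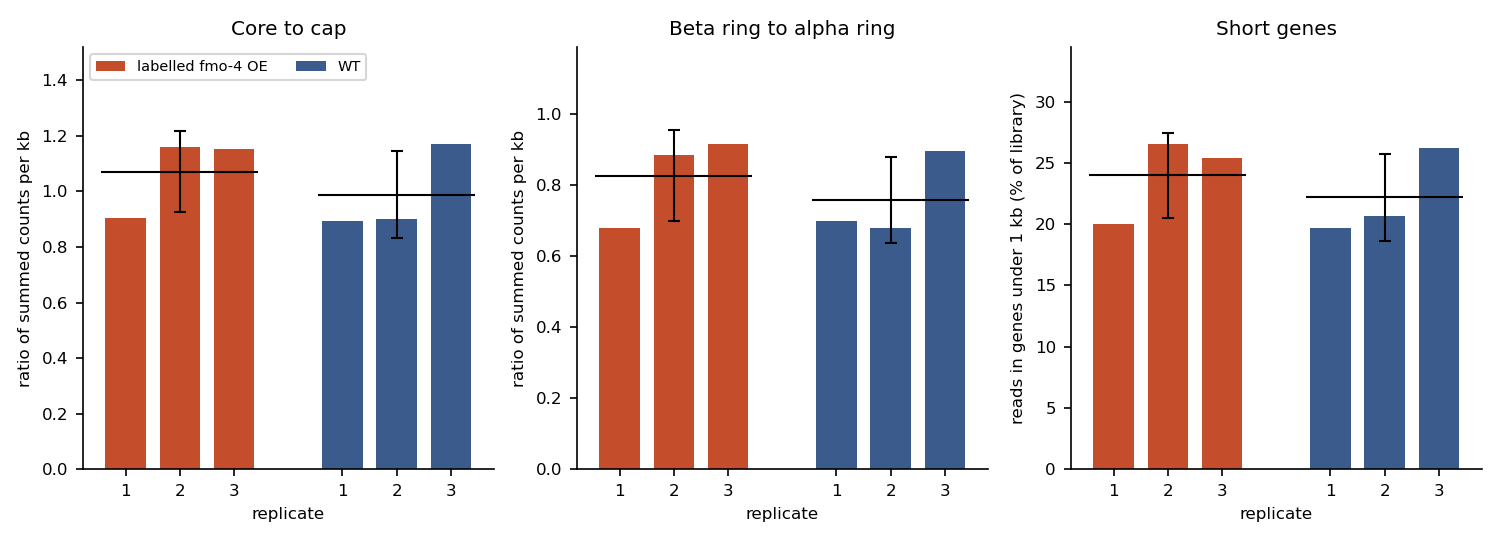
Bars give each library's ratio of summed normalized counts per kb, core to cap and beta ring to alpha ring, and its percentage of reads in genes under 1 kb, with OE-labelled libraries left of WT, black lines for group means and error bars for the SD (n = 3). The core-to-cap ratio lies between 0.893 and 0.904 in 3 libraries and between 1.15 and 1.17 in the other 3, which are also those with 25.4% to 26.5% of reads in short genes.

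The beta ring varied in the same way. The ratio of the beta ring to the alpha ring was 0.680, 0.885 and 0.915 in OE-labelled libraries, against 0.698, 0.680 and 0.898 in WT, in the same division of libraries. The ratio of the lid to the ATPases stayed between 1.25 and 1.36 in all 6 libraries. Without *pbs-1*, an alternative chosen after its spread was seen, the core-to-cap ratio was 0.865, 1.05 and 1.04 in OE-labelled libraries, against 0.836, 0.864 and 1.05 in WT. The libraries with a high core-to-cap ratio were also those with the highest sums of the hypodermal markers, which are all collagen genes. These sums were 23010 and 23326 normalized counts in OE-labelled libraries and 29667 in WT. The same libraries had the lowest sums of the neuron markers and of the oocyte and germline markers, but WT 3 lay only just below WT 2 in both. Oocyte and germline sums were 104899 normalized counts in WT 3 and 105135 in WT 2. Neuron sums were 4030 and 3876 normalized counts in OE-labelled libraries 2 and 3 and 4379 in WT 3. They were 4680 in OE-labelled library 1, 5166 in WT 1 and 4408 in WT 2. The remaining marker lists did not divide the libraries this way. The part of the marker sums and of the read share of short genes in the ratio was not tested.

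Gene by gene, the core and the cap were unevenly spread over the libraries. Of the 14 core genes, 11 were above their mean normalized count of the 6 libraries in OE-labelled library 2 and 11 in WT 3, but only 5 in WT 1 and 3 in WT 2. Of the 19 cap genes, 17 were above their mean in OE-labelled library 1 but 1 in OE-labelled library 3, where 14 of the 19 had their lowest value. Across the 33 subunits, gene length and log2 fold change had a Spearman rho of -0.47, and over all 13413 genes tested one of -0.09. Both are descriptions across genes of the same 6 libraries, not replicates.

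**Figure D4:**
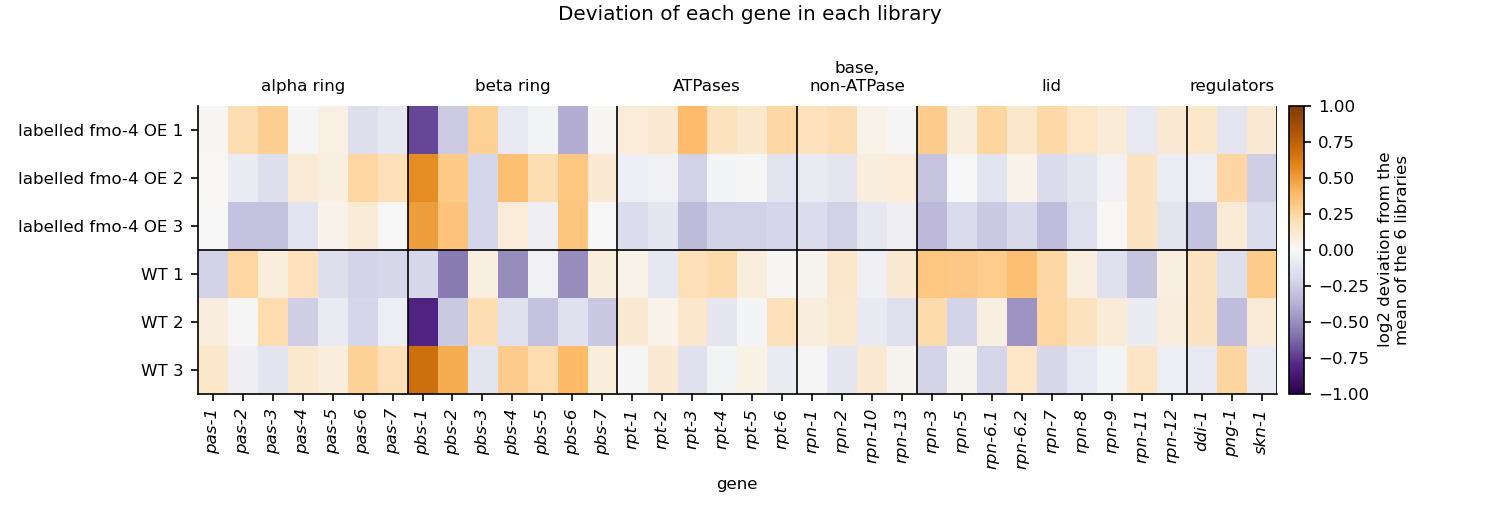
Colour gives the log2 deviation of each member in each library from its mean over the 6 libraries, with OE-labelled libraries above WT, and black lines separate the classes. *pbs-1*, *pbs-2*, *pbs-4* and *pbs-6* are above their mean in OE-labelled libraries 2 and 3 and in WT 3, while 17 of 19 cap genes are above theirs in OE-labelled library 1.

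Of the regulators, *skn-1* had the smallest p of the members. *skn-1*, on chromosome IV from 5651085 to 5655822 in the deposited coordinates, had 4880.0, 3791 and 3983 normalized counts in OE-labelled libraries, against 5543, 4822 and 4234 in WT. OE-labelled library 1 exceeded WT 2 and WT 3, the other OE-labelled libraries lay below all WT libraries, and the log2 fold change was -0.21 (SE 0.15; 95% interval -0.56 to 0.15; adjusted p = 0.937, edgeR with Benjamini-Hochberg adjustment). The reference annotates 4 transcripts for *skn-1*, and a count per gene cannot separate the form made at the endoplasmic reticulum from the others.

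*png-1* had 862, 1109 and 1002 normalized counts in OE-labelled libraries, against 838, 749 and 1119 in WT, with a log2 fold change of 0.14 (SE 0.19). It was highest in WT 3 and lowest in WT 2. It overlaps the amino acid transporter gene *aat-9* by 470 bases on the opposite strand, and the pair had 5751 and 6040 reads over the 6 libraries, so their reads cannot be told apart in the overlap. *ddi-1* had 3198, 2799.8 and 2371 normalized counts in OE-labelled libraries, against 3265, 3255 and 2717 in WT. It was lowest in OE-labelled library 3, and the log2 fold change was -0.14 (SE 0.15). In all, 11 of the 36 members overlap a gene on the opposite strand.

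Genes around the proteasome were described as lists beside all genes tested. Endoplasmic reticulum-associated degradation and the CDC-48 segregase are the route by which SKN-1A leaves the endoplasmic reticulum. Of 11 genes listed for this route, 0 passed an unadjusted p of 0.05 in either direction, with a median log2 fold change of -0.09. The highest of the list was *sel-9*, at 0.20 (SE 0.36), whose place in this route was not checked. *sel-1*, an adaptor of the membrane ubiquitin ligase, stood at 0.02 (SE 0.12), and *sel-11*, that ligase, at -0.15 (SE 0.17). Of 14 genes for ubiquitin, shuttle factors and proteasome-associated enzymes, 0 passed the same threshold, 12 were below 0, and the median was -0.13. Over all genes tested, 7.34% passed that threshold in either direction, 47.2% were above 0, and the median was -0.02. In lists this short, 0 calls lie near that share. The shuttle factor gene *rad-23* stood at -0.15 (SE 0.14) and the ubiquilin gene *ubql-1* at 0.01 (SE 0.11). These lists, like the ones that follow, had 0 genes past an adjusted p of 0.05 in edgeR and 0 in DESeq2, and both tools gave the same counts at the unadjusted threshold.

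*dss-1*, which encodes the smallest lid subunit but falls outside the naming rule, varied more than any member. It had 928, 2905 and 2856 normalized counts in OE-labelled libraries, against 884, 879 and 3268 in WT. It was high in the same 3 libraries as *pbs-1* and *pbs-2*, and its log2 fold change was 0.41 (SE 0.64).

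Of 14 tested regulators of SKN-1 out of 15 listed, 0 passed an unadjusted p of 0.05 and the median was -0.07. *wdr-23*, which targets SKN-1 for degradation, stood at -0.20 (SE 0.15). Of 13 tested detoxification and thiol genes known as targets of SKN-1, out of 14 listed, 1 was lower and 0 were higher at an unadjusted p of 0.05, and the median was -0.07. Over all genes, 3.01% were lower and 4.32% were higher at that threshold.

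The lower one was *nit-1*, a nitrilase gene, with 74.3, 58.1 and 68.7 normalized counts in OE-labelled libraries, against 241, 111 and 109 in WT. Its groups did not overlap, with a log2 fold change of -1.20 (SE 0.37) that missed the adjusted threshold (adjusted p = 0.583, edgeR with Benjamini-Hochberg adjustment). *gst-7*, a glutathione S-transferase gene, had 3928, 3637 and 3374 normalized counts in OE-labelled libraries, against 3324, 2593 and 3179 in WT. Its groups did not overlap either, but the log2 fold change of 0.27 (SE 0.14) missed both thresholds. Groups thus did not overlap for 2 of the 13 tested targets, and for 11.1% of all genes tested. *gst-4*, the usual reporter gene of SKN-1 activity, had 502, 225 and 117 normalized counts in OE-labelled libraries, against 584, 497 and 152 in WT. It was low in the 3 libraries with a high core-to-cap ratio, and its log2 fold change was -0.55 (SE 0.64).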

How the data were processed

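Whole-worm RNA was sequenced in 3 libraries labelled *fmo-4* OE and 3 WT libraries. The authors deposited whole-number counts per gene, with a gene length. The submitters' notes name fastp, HISAT2, StringTie and featureCounts. Their versions, the genome build and the use of strand are not given in the sources used here. All 36 members lay on the same chromosome as in the WBcel235 annotation, with starts that differed by a median of 3.0 bases. The deposited files were 1 table of all genes and lists of genes the authors selected, which were not used. Columns of the authors' own comparisons (fold changes, p-values) were not used either, nor were 66 further columns of single libraries over these files, among them FPKM and normalized values. Sequence names were matched to symbols for 18797 genes by the WormBase name table and for 285 more by RefSeq.

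Counts were filtered with filterByExpr (13413 genes kept), scaled by the trimmed mean of M values (TMM) to the mean effective library size, and tested with edgeR 4.0.16 (limma 3.58.1, R 4.3.3) by the robust quasi-likelihood test, OE-labelled libraries over WT, with Benjamini-Hochberg adjustment over all genes tested and a threshold of 0.05. The biological coefficient of variation was 0.297. SD values within groups are of log2 normalized counts plus 0.5. An exact test of 3 against 3 libraries cannot go below p = 0.1, so none was run. The labels call the libraries biological replicates but do not describe separate cultures, and p-values measure the spread between these libraries.

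Members, gene lists and tests were chosen with earlier results of these data known. Values in every library are given for the regulators, the catalytic beta subunits, *pas-3*, *rpn-6.1*, *rpn-10*, *rpn-11*, *rpn-13* and the genes with the highest and lowest fold change of each class. *pbs-4*, *pbs-6* and *rpn-6.2* and genes outside the members were added after their values were seen. Alternatives were DESeq2 1.42.0, other scalings and filters, the replicate number as a block, the short-gene read share as a covariate and each library left out.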

Additional observations from a re-analysis of the deposited data

How the results depend on the processing

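No member passed an adjusted p of 0.05 under any of the 13 alternatives. The count of members higher at an unadjusted p under 0.05 ranged from 0 to 1 with 1 library left out, and the core-to-cap difference on the log2 scale stayed between 0.05 and 0.25. The counts over all genes moved more. Genes at an unadjusted p under 0.05 ranged from 219 to 975 (higher) and 227 to 653 (lower) with 1 library left out, against 580 and 404 with all 6. Genes at an adjusted p under 0.05 ranged from 0 to 51 (higher) and 0 to 80 (lower) with 1 library left out, against 2 and 4. DESeq2 gave 44 higher and 48 lower, library size alone 0 higher, no filter beyond 1 count 4 higher, and a minimum of 10 counts in every library 0 higher and 0 lower. Given the read share of genes under 1 kb as a covariate, 7 were higher and 7 lower at the adjusted threshold, and 648 were lower at the unadjusted one.

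Fold changes near 0 changed sign with the setting. With that covariate the log2 fold change was -0.15 for *pbs-1*, 0.029 for *rpn-6.1*, -0.012 for *rpn-10*, -0.0089 for *pas-6*, 0.0083 for *pbs-3* and 0.026 for *rpt-3*. *rpt-2* stood at 0.011 without the filter and 0.0094 under the minimum of 10 counts. Leaving out single libraries gave a range of -0.093 to 0.69 for *pbs-1*, -0.050 to 0.21 for *pbs-5*, -0.27 to 0.020 for *pas-3* and -0.24 to 0.0070 for *pas-2*. It was -0.25 to 0.0010 for *pbs-3*, -0.25 to 0.026 for *rpn-6.1*, -0.037 to 0.066 for *rpn-10*, -0.059 to 0.059 for *rpn-13* and -0.21 to 0.0098 for *rpn-2*. For *rpt-2* and *rpt-3* it was -0.089 to 0.032 and -0.33 to 0.046. The causes were not tested.

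Same-numbered libraries had correlations of 0.43, -0.31 and 0.36 between their deviations from the group means. OE-labelled libraries 1 and 3 correlated best with the WT library of the same number. OE-labelled library 2 correlated best with WT 3 (0.51). These few correlations cannot tell whether the numbers pair the libraries. With the replicate number as a block, the unadjusted threshold was passed by 756 higher and 505 lower genes and the adjusted one by 2 and 3, and no member passed either.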

Other observations

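*rpn-6.2*, the close copy of the lid gene *rpn-6.1*, had 725, 682 and 575 normalized counts in OE-labelled libraries, against 851, 475 and 732 in WT. Its log2 fold change was -0.05 (SE 0.24), its groups overlapped, and its highest library stood 1.79-fold above its lowest, the widest ratio of the cap genes before *rpt-3* (1.63) and *rpn-3* (1.58). Its level per kb exceeded that of 60.1% of the genes tested. The marker sums of the early embryo were 96.0, 113 and 127 normalized counts in OE-labelled libraries, against 46.6, 85.9 and 39.6 in WT. This was the only one of the 8 marker lists whose groups did not overlap, and its sums were the lowest. Among all single genes tested, groups did not overlap for 11.1%. The marker sums of oocytes and germline were 115383, 101128 and 97027 normalized counts in OE-labelled libraries, against 122137, 105135 and 104899 in WT.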
